A study of Mus musculus with 4 samples.

Results

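The Rab GTPases of the endoplasmic reticulum (ER), the Golgi and recycling endosomes are 10 genes whose transcripts carried contacts of the RNA-binding protein IMP2 (gene Igf2bp2) in the embryonic mouse brain. They are Rab1a, Rab2a, Rab6a, Rab6b, Rab18, Rab8b, Rab10, Rab11a, Rab14 and Rab35. These genes were chosen by an entry in the measured list of IMP2 contact sites and by a role in secretory or recycling traffic. Rab3a, which also has an entry and was classed as exocytic, is not in the set and is described below. These 10 genes are among 761 with an entry, and their 14 clusters are among 1828. A cluster is a peak of overlapping sequenced RNA fragments (tags). Rab1a and Rab6a stand in the list under the older symbols Rab1 and Rab6 and were matched by transcript accession.

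The contacts were mapped by HITS-CLIP, in which ultraviolet light joins a protein to the RNA it touches, the protein is pulled down with an antibody, and the attached RNA is sequenced. All 4 libraries came from whole brain of Swiss Webster embryos at E14, with no genotype, treatment or second age to compare, and the labels do not say whether embryos were pooled. Titles carry R in 2 libraries and M in the other two, and the protocol names a rabbit and a mouse antibody without stating that the letters stand for them. The deposited list gives 1 value per cluster for the whole series, so the values below have no replicate error and no depth per library. No input RNA or control pull-down was analysed here.

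Rab proteins are small GTPases that switch between a GDP-bound form held in the cytosol and a GTP-bound form on a membrane, where they recruit motors, tethers and other effectors. Each Rab marks particular compartments, and together they direct vesicles from the ER through the Golgi to the cell surface and back through endosomes. In growing neurons this traffic supplies membrane and receptors to axons and dendrites.

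Marker genes for the labelled tissue were looked up, beside the 3.47% of all protein-coding genes with an entry. These markers were chosen with earlier results of these data known, and an entry records IMP2 contact and not RNA level. The shares are therefore no test of which cells the tissue held. Of 8 young-neuron markers, 6 had clusters (75%), led by Nrep (height 106), Sox11 and Map1b (90 each), while Tubb3 and Neurod1 had none. Of 8 progenitor markers 2 were listed (25%), Ccnd2 (77) and Vim (27), and Nes, Sox2 and Pax6 had no cluster. Markers of other cells were present too, 7 of 16 in all: 3 of 4 blood markers (75%, globins with heights of 23 to 27), 2 of 3 meningeal markers (66.7%, 20 to 29), 1 of 4 vessel markers (Rgs5, 47) and the choroid plexus gene Ttr (88). Hba-a1 and Hba-a2 each had 1 cluster of height 27 and fold 6.39, and whether the same tags were counted for both was not checked. Microglia markers had none (0 of 4). Their part in the Rab clusters was not tested.

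All 14 clusters of the 10 genes lay wholly inside the 3' UTR. Over the whole list, 94.1% of clusters were in a 3' UTR. The clusters were of moderate size: the height, the authors' signal (pileup) value, ran from 20 to 37 with a median of 28, against a median of 30 and a range of 18 to 107 for the whole list. Of the 14, 5 were taller than that median and 9 were at or below it. The authors' fold of the height, a ratio to a level that the file does not define, ran from 3.05 to 7.20 with a median of 4.70, against 5.40 for all clusters. Only the cluster of Rab35 was above the whole-list median fold, and 13 were at or below it. The members were chosen for having a cluster, so these values describe them and carry no test. The lowest height in the list was 18 and the lowest fold 2, and the members nearest to these values were Rab6b by height (20) and Rab2a by fold (3.05).

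**Figure D1:**
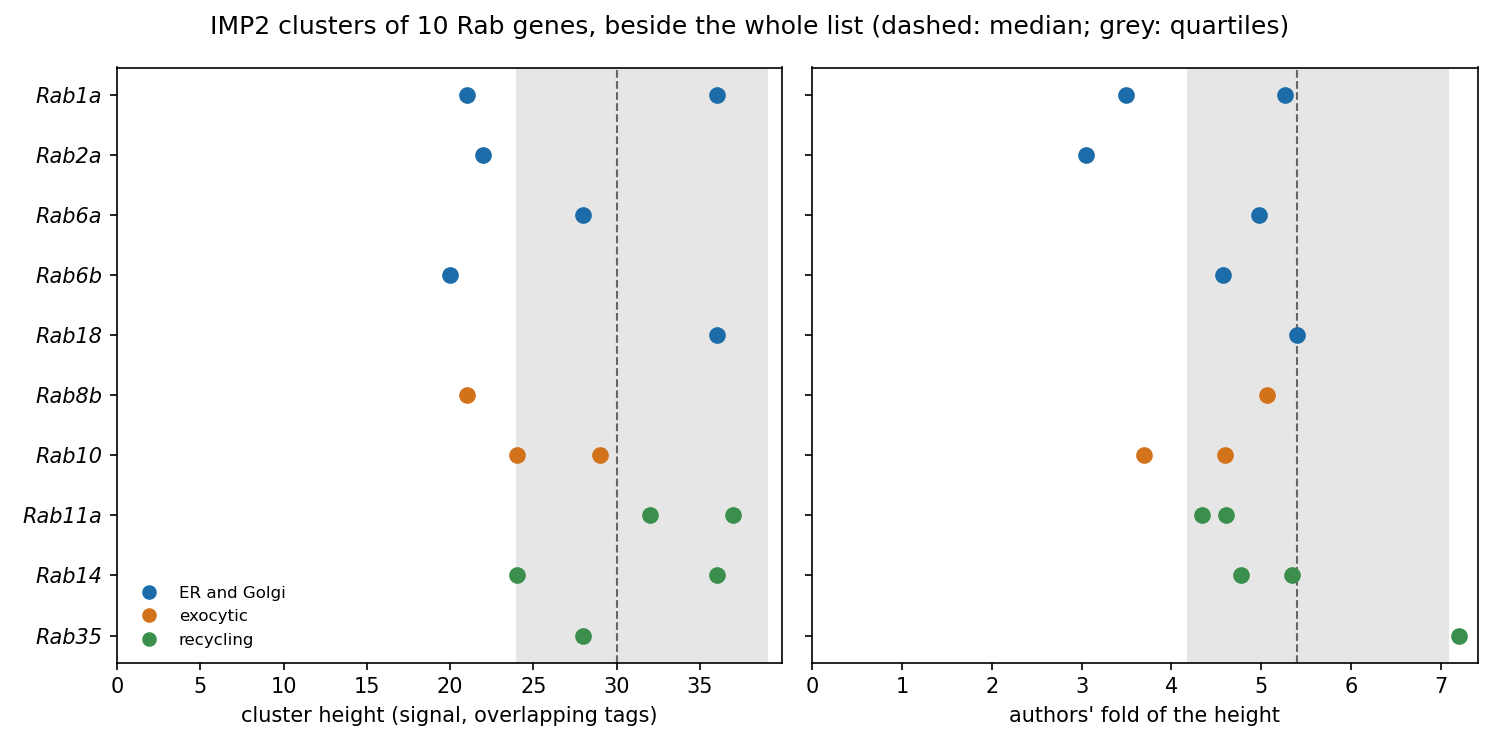
Height (left, signal in overlapping tags) and the authors' fold of the height (right, a ratio) of each of the 14 clusters, 1 point per cluster, in rows by gene and coloured by compartment; the dashed line and grey band are the median and quartiles of all 1828 clusters. The heights run from 20 to 37 around the whole-list median of 30, and in fold only Rab35, at 7.20, lies above the median of 5.40.

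Among the ER and Golgi genes, Rab1a and Rab18 carried the tallest clusters. Rab1a, which directs traffic from the ER to the Golgi, had 2 clusters on chromosome 11 (mm9, plus strand). The taller one, at chr11:20124908-20124973, had a height of 36 and a fold of 5.26, and it began 59 bases after the stop codon. The lower one, at chr11:20125344-20125381, had a height of 21 and a fold of 3.49 and lay 370 bases further along the 2011-base 3' UTR. The 2 heights of Rab1a thus differed by 1.71 times, the widest ratio among the 4 genes with 2 clusters. Rab18, which acts at the ER and at lipid droplets, had a single cluster of height 36 and fold 5.40 at chr18:6789489-6789535 (plus strand), 54.5% of the way along a 3' UTR of 1576 bases.

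Rab2a and the Rab6 genes had lower clusters. Rab2a, which works between the ER and the Golgi, had 1 cluster of height 22 at chr4:8533989-8534029 (plus strand). Its fold of 3.05 was the lowest of the 14, and 6.24% of all clusters had a smaller one. Rab6a, a Golgi Rab of retrograde and secretory traffic, had a cluster of height 28 and fold 4.98 at chr7:107788519-107788556 (plus strand). That cluster belonged to 2 deposited transcripts with the same 3' UTR.

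Rab6b, the relative of Rab6a enriched in neurons, had a cluster of height 20 and fold 4.57 at chr9:103085326-103085411 (plus strand). It was the lowest of the 14 in height, and 5.09% of all clusters were lower. The Rab6b cluster lay near the middle of a 4024-base 3' UTR (44.5% of its length), and that of Rab6a 36.1% along a shorter one of 1949 bases. Rab6a and Rab6b were the only genes of the same Rab number that both had clusters.

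The exocytic members differed in where their clusters fell. Rab10, which takes part in delivery of vesicles to the plasma membrane, had 2 clusters close to the stop codon on chromosome 12 (minus strand). The first, at chr12:3249618-3249669, had a height of 29 and a fold of 4.60, and the second, at chr12:3249457-3249587, a height of 24 and a fold of 3.70. Only 30 bases separated the Rab10 clusters, and the second, 131 bases wide, was the broadest of the 14. Rab8b, a Rab of transport from the trans-Golgi to the surface, had a cluster of height 21 and fold 5.06 at chr9:66691794-66691840 (minus strand). It stood 91.5% of the way along a 3' UTR of 4055 bases, the longest among the 10 genes.

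The recycling members held the tallest cluster and the highest fold. Rab11a, the Rab of the recycling endosome, had neighbouring clusters of height 37 and 32 at chr9:64564211-64564273 and chr9:64564341-64564411 (minus strand), with folds of 4.61 and 4.34. They lay 67 bases apart and covered 8.65% of the 3' UTR, the largest share among the 10 genes. A height of 37 placed Rab11a above 65.0% of the listed genes when each gene was ranked by its highest cluster.

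Rab14, which links the trans-Golgi with endosomes, had a cluster of height 36 and fold 5.34 at chr2:35036951-35037016 (minus strand) and another of height 24 and fold 4.78 at chr2:35035793-35035823. The Rab14 clusters were 1127 bases apart, the widest gap, and the second lay 68 bases before the 3' end. Rab35, a Rab of fast recycling to the plasma membrane, had a cluster of height 28 at chr5:116096354-116096402 (plus strand). Its fold of 7.20 exceeded that of 76.8% of all clusters, although its height exceeded that of only 39.0%. Height divided by fold gives the implied reference level, which was 3.89 for Rab35, the lowest of the 14, and 8.03 for the taller cluster of Rab11a, the highest.

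Ordered by highest cluster, the genes ran from Rab11a (37) through Rab1a, Rab14 and Rab18 (36 each), Rab10 (29), Rab35 and Rab6a (28 each), Rab2a (22) and Rab8b (21) to Rab6b (20). Without replicate values, none of these steps could be set against an error. RNA levels were not measured, so height is not a measure of contact per transcript. The median over the 10 genes was 28.5, against 31 over the 761 listed genes. In 4 of the 10 the highest cluster exceeded that of the median listed gene (Rab11a, Rab1a, Rab14 and Rab18). Rab1a, Rab10, Rab11a and Rab14 had 2 clusters and the other 6 genes had 1. Over the whole list 44.9% of genes had at least 2 clusters, and the largest number was 34.

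The 3' UTRs of the 10 genes were of ordinary length for listed genes. Their median was 1980 bases (range 1199 to 4055), against 1998 over the 729 genes with a 3' UTR cluster. Rab6b and Rab8b, with the longest 3' UTRs, had only 0.249 and 0.247 clusters per kb, the lowest densities of the group, and Rab11a had the highest (1.29). The median density was 0.775 clusters per kb for the 10 genes and 0.861 for all. Clusters covered between 1.16% (Rab8b) and 8.65% (Rab11a) of the 3' UTR, with a median of 3.46% against 4.70% for all.

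Most clusters of the 10 genes lay toward the stop codon. In 11 of the 14 the midpoint was nearer to the stop codon than to the 3' end, against 52.1% of all 1721 clusters in 3' UTRs. The median position was 33.0% of the way from stop codon to 3' end, against 48.2% for all. Rab1a (4.57%) and Rab10 (6.06% and 11.2%) had the earliest clusters. The exceptions were Rab8b (91.5%), the second cluster of Rab14 (96.0%) and Rab18 (54.5%). Clusters of a gene share a 3' UTR. With only the highest 3' UTR cluster of each gene the median was 37.6%, against 48.2% over the 729 genes with such a cluster. On the stop-codon side were 8 of 10 genes, against 378 of 729. Position played no part in choosing the members, but no chance test was made, and 14 clusters in 10 genes are few.

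**Figure D2:**
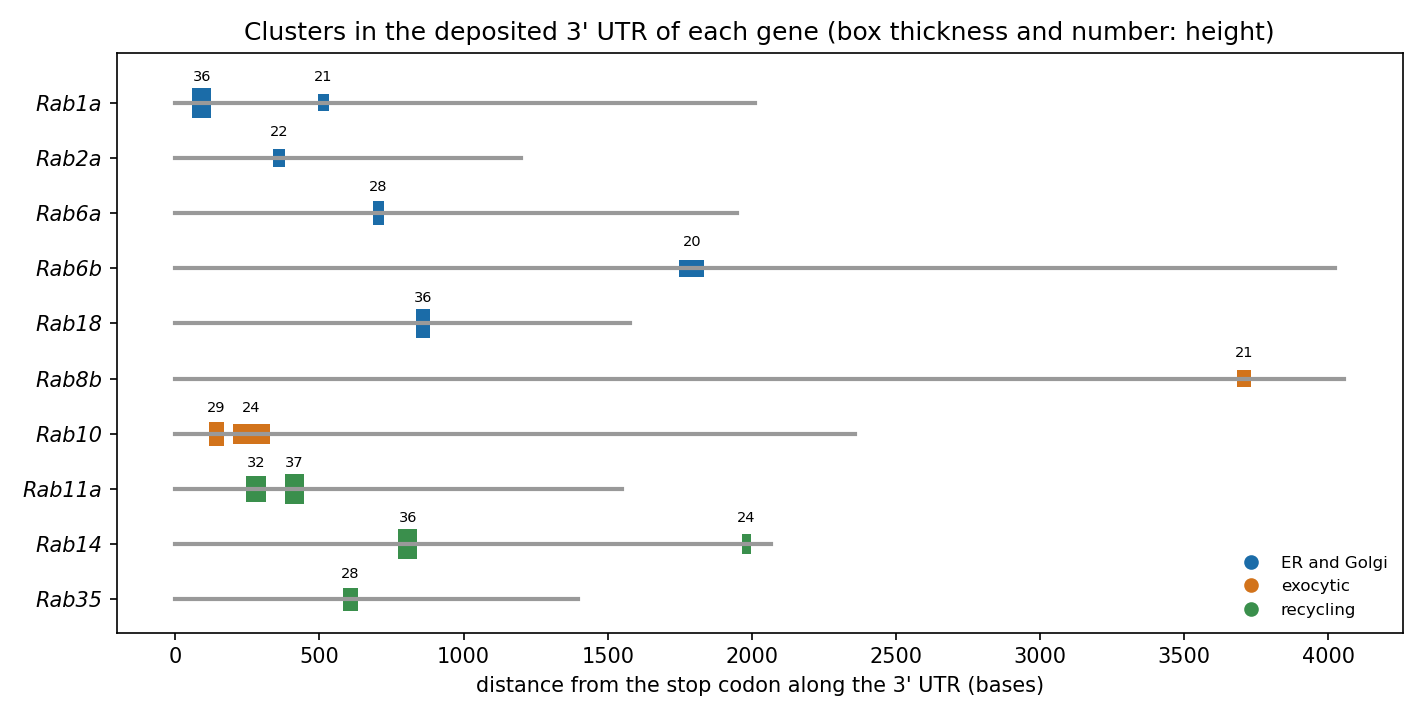
The 3' UTR of each gene drawn to scale as a grey line from the stop codon (0 bases) to the 3' end, with each cluster as a box whose length is its width and whose thickness and number give its height, coloured by compartment. Of the 14 boxes, 11 lie closer to the stop codon, while Rab8b, the second Rab14 box and Rab18 lie closer to the 3' end.

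Across the whole Rab family, 12 of 59 genes had at least 1 cluster (20.3%), where the share of all 21900 protein-coding genes was 3.47%. Of these 12, 10 are the members, which were chosen for being listed, so nothing is read from the difference between the shares. The other two were Rab3a and Rab39b. Rab3a, the Rab of synaptic vesicles, had a cluster of height 20 and fold 3.64 at chr8:73282453-73282518 (plus strand), 83.3% of the way along a 3' UTR of only 598 bases. Rab39b, a neuronal Rab whose human counterpart is linked to intellectual disability, had a cluster of height 31 and fold 9.43 at chrX:72819117-72819158 (minus strand), 31.0% along its 3' UTR. That fold was the highest of any Rab cluster and exceeded 92.2% of the list.

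Listed Rab genes fell in the secretory and recycling classes and in neither the early endosome nor the late endosome and lysosome class. Rab genes of recycling endosomes were counted as recycling. The remaining listed gene, Rab39b, was placed with 12 unlisted genes of other or mixed location. By compartment, 5 of 11 ER and Golgi genes (45.5%, exact 95% interval 16.7 to 76.6), 3 of 12 exocytic genes (25%, 5.49 to 57.2) and 3 of 9 recycling genes (33.3%, 7.49 to 70.1) were listed. Among the early endosome genes, Rab5a, Rab5b, Rab5c, Rab21, Rab22a and Rab31 had no cluster (0 of 6, exact upper limit 45.9%). The late endosome and lysosome genes, which include Rab7, Rab7b, Rab9 and Rab9b, had none either (0 of 8, upper limit 36.9%). Together 0 of 14 early and late endosomal genes were listed (upper limit 23.2%), against 11 of 32 secretory and recycling genes (34.4%, 18.6 to 53.2). The count of 0 depends on the classes, which were set by hand. Rab14, which links the trans-Golgi with endosomes, was counted as recycling, and no other placing was counted. The intervals show only how few genes each count rests on. They do not allow for the choice of genes and classes with earlier results of these data known. This split was part of how the 10 genes were chosen, so it describes the list and was not tested.

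**Figure D3:**
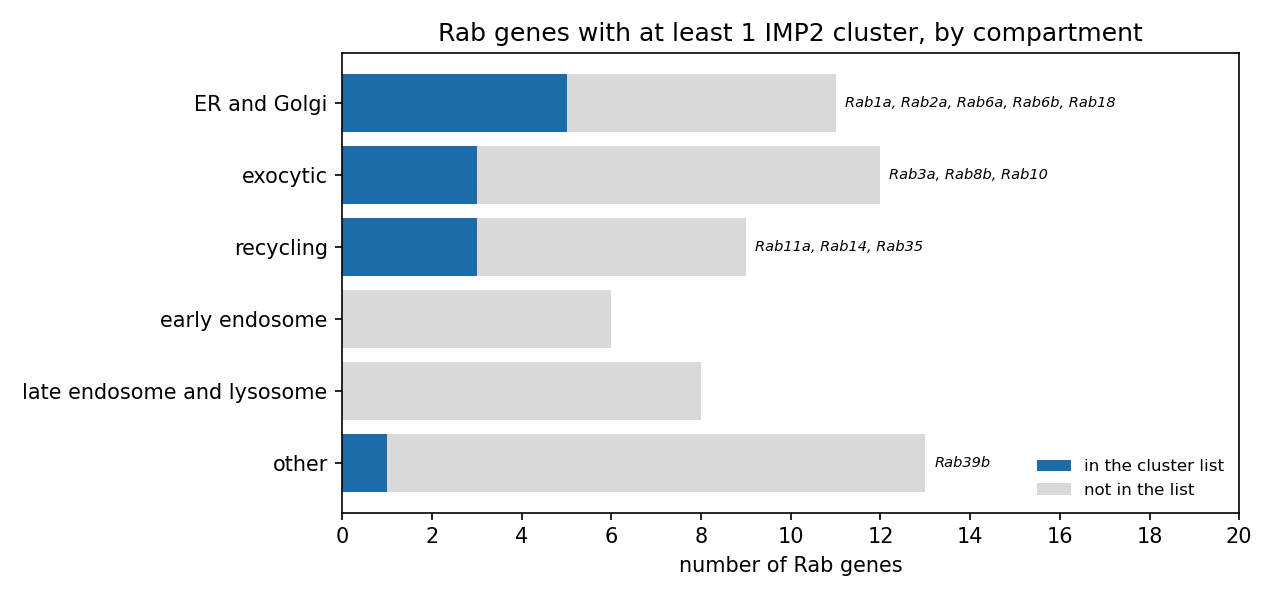
Number of Rab genes in each compartment (horizontal bars, gene counts from 0), divided into those with at least 1 IMP2 cluster (blue, named at the right) and those with none (grey). The blue parts are 5 of 11 for ER and Golgi, 3 of 12 for exocytic, 3 of 9 for recycling, 0 of 6 and 0 of 8 for the early and late endosomal classes and 1 of 13 for the rest.

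Close relatives of the listed genes were often missing, but so were most Rab genes (47 of 59). Over all protein-coding genes only 3.47% were listed, so nothing particular to relatives is read from their absence. Rab1a, Rab2a, Rab8b and Rab11a were listed and Rab1b, Rab2b, Rab8a and Rab11b were not. Rab3a was listed without Rab3b, Rab3c or Rab3d, and Rab39b without Rab39. The recycling genes Rab4a and Rab4b had no cluster. RNA levels were not measured, so for these unlisted genes little RNA and little contact cannot be told apart. A search of RefSeq for symbols made of a Rab name and the ending -ps found 5 pseudogenes, of Rab11b, Rab5a, Rab7 and Rab9b. Pseudogenes under other symbols were not searched for. Of these 4 parent genes 0 were listed, a count too small to set against the 20.3% of all Rab genes. No source used here states how tags that match several places were treated, and its part in the missing genes was not tested.

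Stricter counting left fewer Rab genes. With only clusters taller than the whole-list median, 5 of the 59 were listed (Rab1a, Rab11a, Rab14, Rab18 and Rab39b), against 1.87% of all protein-coding genes. With at least 2 clusters required, 4 were (Rab1a, Rab10, Rab11a and Rab14), against 1.56%. With only clusters above the median fold, Rab35 and Rab39b made 2, against 2.34%. All of these genes except Rab39b are members, which were chosen for being listed. Nothing is therefore read from the counts beside these shares.

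**Figure D4:**
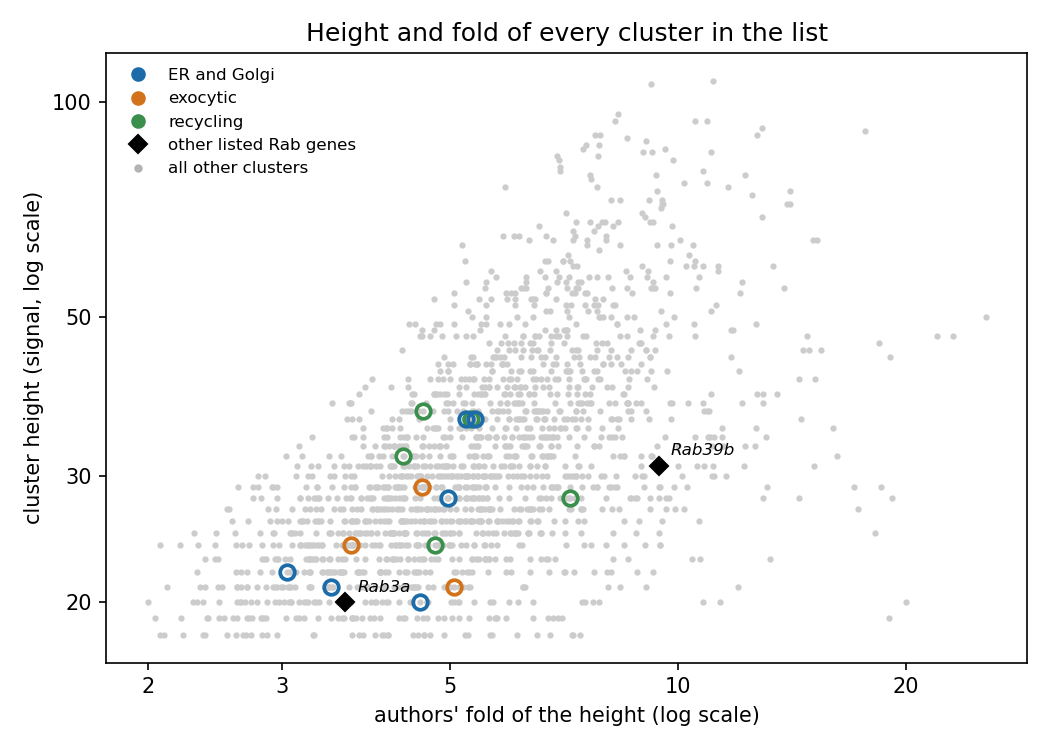
Cluster height (vertical, signal, log scale) against the authors' fold of the height (horizontal, ratio, log scale) for all 1828 clusters (grey), with the 14 clusters of the 10 Rab genes as open circles by compartment and those of Rab3a and Rab39b as black diamonds. The circles sit in the lower middle of the cloud, at heights of 20 to 37, and Rab39b lies to their right at a fold of 9.43.

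Some genes that work with Rab proteins were listed as well. Their shares stand beside the 3.47% of all protein-coding genes and not beside that of the Rab genes, which follows from how the members were chosen. These lists, and that of other small GTPases below, were written with earlier results of these data known. Their intervals are therefore no test against 3.47%. That share is over all protein-coding genes, whether or not the embryonic brain expresses them. Of 79 regulators and effectors of the Rab cycle, 5 had clusters (6.33%, exact 95% interval 2.09 to 14.2). They were led by the actin motor gene Myo5a (highest cluster 47), the endosomal adaptor gene Appl1 (29), and Rabgap1l and Tbc1d16 (27 each), which encode GTPase-activating proteins of the TBC type. Of 82 genes of the wider secretory machinery, 8 were listed (9.76%, 4.31 to 18.3). The tallest belonged to Tmed7 (42, with 5 clusters), a cargo receptor of ER vesicles, to Gorasp2 (41), a Golgi stacking protein, and to Kdelr2 (31), which returns proteins to the ER. The coat subunit gene Copa and the cargo receptor gene Lman1 followed with 29 each.

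Small GTPases outside the Rab family were listed in 6 of 53 cases (11.3%, exact 95% interval 4.27 to 23.0). Rnd3, which lowers actin tension, reached a height of 59, Arl8b, a lysosomal GTPase, 47, Rhob 43 and Cdc42, an organiser of actin in growth cones, 29. The median highest cluster of these 6 genes was 36, beside 28.5 for the 10 Rab genes and 31 for all listed genes, with no test of the difference.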

How the data were processed

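HITS-CLIP tags of 4 IMP2 libraries were aligned with Bowtie to mm9, per the submitters' processing notes, which also name FastQC. No source used here names the peak caller, its thresholds, library depths or any pooling. Heights were deposited as a signal value in whole numbers, and the deposited fold is a ratio of the height whose reference level the file header does not define. PCR duplicates could not be checked. The 2865 deposited lines were reduced to 1828 distinct clusters (Python 3.11.15, pandas 2.3.3), with starts made 1-based. Transcripts were matched to RefSeq genes (GRCm38.p6) by accession (1088) or name (11), for names only. Region was set by the cluster midpoint, and the longest deposited interval gave the 3' UTR. Positions and 3' UTR lengths were tested on simulated 3' UTR clusters, and joining on made-up clusters. The setting of region was not tested in this way. Shares have exact Clopper-Pearson intervals (SciPy 1.17.1). The members and gene lists (59 Rab genes, 3 companion lists, brain markers) were chosen with earlier results of these data known. Named were the members, listed Rab genes, their nearest relatives and the Rab3, Rab4, Rab5 and Rab7 genes, and the 4 tallest genes (with ties) of each companion list; the further endosomal, progenitor and neuronal genes were named after their values were seen. No p-value was computed. Protein and cluster sequences were not used here.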

Additional observations from a re-analysis of the deposited data

How the results depend on the processing

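Of 11 alternatives, 6 stayed within 1.5 times the reported value and 5 did not. Rab genes listed fell from 12 to 5 with clusters taller than the median, to 4 with at least 2 clusters and to 2 with folds above the median. The 10 members fell to 4 with taller clusters and to 4 with at least 2 clusters. These settings count fewer clusters by construction. Some of the 6 that stayed could not have moved, so their stability says nothing about the results. All 14 clusters lay wholly inside the 3' UTR, so setting the region by most bases had to give 14 again. The deposited 3' UTR intervals of a member did not differ, so the shortest interval had to give the same median position. Joining clusters at most 50 bases apart left 13 clusters of 14, the pair of Rab10 becoming 1. Leaving Rab18 and Rab14 out of the compartments left 9 of 30 secretory and recycling genes listed, a count fixed by the removal. The position from highest clusters alone was added after the data were seen. The planned protein identities of Rab pairs were not run. No paired analysis was possible because the list has no values per library.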
